A study of Mus musculus with 4 samples.

Results

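The genes described here are 6 markers of Schwann cells and peripheral nerve, namely Sox10, Erbb3, Ngfr, Mbp, S100b and Gap43, read out in the RNA of fetal brown adipose tissue (BAT). They were taken by name from the count table after its Ensembl identifiers had been matched to gene symbols. All 6 were found among the 22298 genes of the table, and all 6 were among the 12888 genes with enough counts to be tested. The study asked how fructose in the drinking water of pregnant mice affects the BAT of their fetuses. RNA was sequenced from 2 control libraries, whose dams drank tap water, and 2 fructose libraries, whose dams drank water with 20% (w/v) fructose through pregnancy. All 4 were BAT of C57BL/6 fetuses (C57BL/6J in the study's methods) at the end of gestation that the labels give as male, with no genetic change named, so that by their labels the 2 groups differed only in what the dams drank. How many fetuses or litters entered each library is not given in the sources used here, so the p-values below measure only the spread between these libraries, which may be technical.

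Brown fat is densely innervated by sympathetic fibres, whose noradrenaline drives heat production. The axons run with Schwann cells, glia of neural crest origin that grow under the control of neuregulin signals from the axon and ensheathe or myelinate it. The cell bodies of the sympathetic neurons lie in ganglia outside the fat pad, and the fat pad itself holds their axons and the glia around them.

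The libraries held 18542897 to 23645147 counts, and replicate libraries differed by more than counting noise, with a chi-square statistic that was 11.4 times its degrees of freedom among controls and 7.47 times among fructose libraries. Mitochondrially encoded genes took 5.89 and 6.49% of the counts in the controls and 10.8 and 11.2% with fructose, a share that split by group and whose part in the results was not tested. Brown adipocyte genes were abundant in every library, with a mean of 11065 CPM (read counts scaled to the depth of the library) for Ucp1, the uncoupling protein of brown fat, in controls. The genes Uty, Kdm5d, Ddx3y and Eif2s3y of the Y chromosome summed to 422 and 390 counts in the control libraries and to 0 counts in both fructose libraries, where a count of 0 allows up to 3 counts. Both fructose libraries therefore went against their label of male, and a difference in fetal sex and the drink cannot be told apart in any result below. Between the groups, the log2 fold change over genes moved with the length of the longest transcript (Spearman rho 0.501 over 12884 genes) and against its GC content (rho -0.501), and genes are not independent replicates.

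The 6 genes were expressed at very different levels. Levels were compared between genes as CPM per kilobase of the longest annotated transcript, since long transcripts give more reads. S100b stood highest, with a mean of 43.9 CPM per kilobase over the 4 libraries, a level above that of 89.6% of all tested genes. Mbp followed at 5.45 and Ngfr at 3.37 CPM per kilobase. Gap43 at 1.28, Erbb3 at 1.05 and Sox10 at 0.550 CPM per kilobase were the lowest, and Sox10 lay above only 13.8% of the tested genes. The ranges of S100b, Mbp and Ngfr over the 4 libraries did not touch each other, at 39.6 to 49.0, 4.96 to 5.99 and 3.19 to 3.62 CPM per kilobase. Those of Gap43, 0.780 to 1.90, and Erbb3, 0.931 to 1.28, overlapped, and the order of this pair of neighbours differed by group. Gap43 lay below Erbb3 in both control libraries and above it in both fructose libraries. Sox10, at 0.437 to 0.684 CPM per kilobase, stayed below both of these genes.

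**Figure D1:**
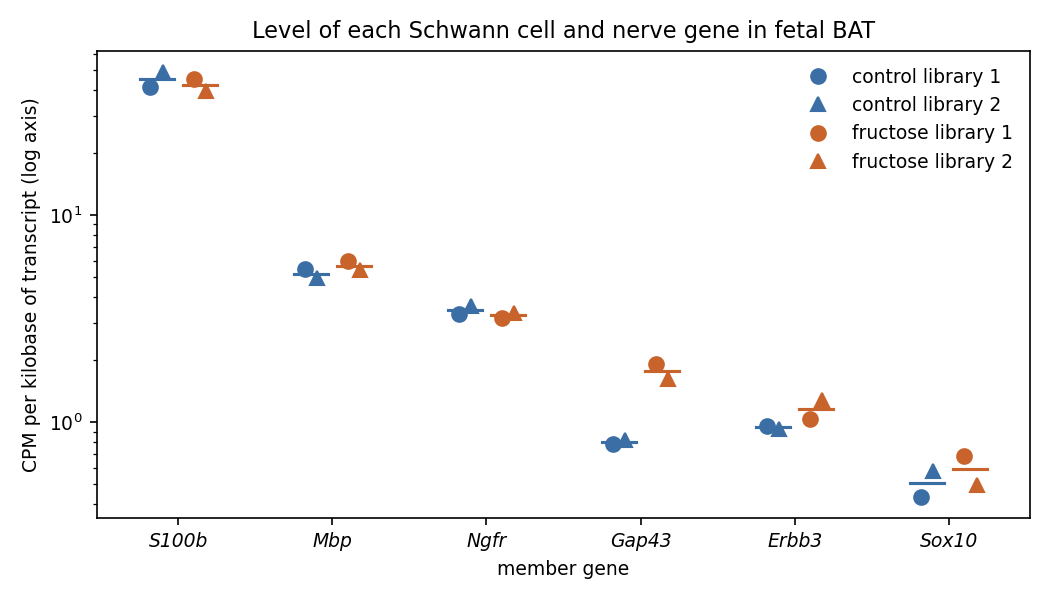
Level of each of the 6 genes as CPM per kilobase of the longest transcript (log axis), with 1 point per library and a bar at the mean of each group. S100b lies between 39.6 and 49.0 and Sox10 between 0.437 and 0.684 CPM per kilobase, and Gap43 is the gene whose control and fructose points lie farthest apart.

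S100b was 79.8 times as abundant per kilobase as Sox10 and 8.05 times as abundant as Mbp, the next in the order. S100b encodes a calcium-binding protein that is a classic glial marker, but brown adipocytes also make and secrete it as a factor that promotes innervation. A level of S100b in whole BAT is therefore the sum of at least 2 kinds of cell, whose shares were not measured. The glial transcription factor Sox10, which brown adipocytes are not known to use, was counted at only 23 to 43 reads per library. That alone gives a counting error of 19.6% for a control library of average count and 16.1% for a fructose library of average count. In bulk tissue, fewer cells of a type and less RNA per cell cannot be told apart, here and in all results that follow.

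When the fructose libraries were compared with the controls, Gap43, a growth-cone protein of extending axons that immature Schwann cells also make, was 2.18-fold higher, and it was the 1 gene of the 6 that was called. A gene was called where edgeR's quasi-likelihood test gave it a p under 0.05 after Benjamini-Hochberg adjustment over all tested genes. Sox10, Erbb3, Ngfr, Mbp and S100b were not called in either direction, and with DESeq2, or for a fall at an unadjusted edgeR p under 0.05, the count was 0 of 6. Among all 12888 tested genes, 15.5% were called higher and 10.7% lower, 26.2% in all, so that 1 call among 6 genes is near what the whole table gave. The split between directions, 2001 against 1379 genes, was 2242 against 859 with library size as the only scaling. A looser rule on the edgeR fit, an unadjusted p under 0.05 with a fold change over 1.3, took the same 1 gene, against a background of 17.6% higher and 6.18% lower, 23.8% in all. These are the study's thresholds, which it applied to DESeq2 p-values instead. Both fructose libraries lay above both controls for 2 of the 6 genes, Gap43 and Erbb3, and for 33.4% of all tested genes, and both lay below both controls for 0 of the 6 and for 31.6% of all. The median log2 fold change of the 6 genes was 0.17, against 0.00 over all tested genes. Their summed level was 108 and 117 CPM in the control libraries and 118 and 108 CPM in the fructose libraries, a sum that S100b dominated.

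**Figure D2:**
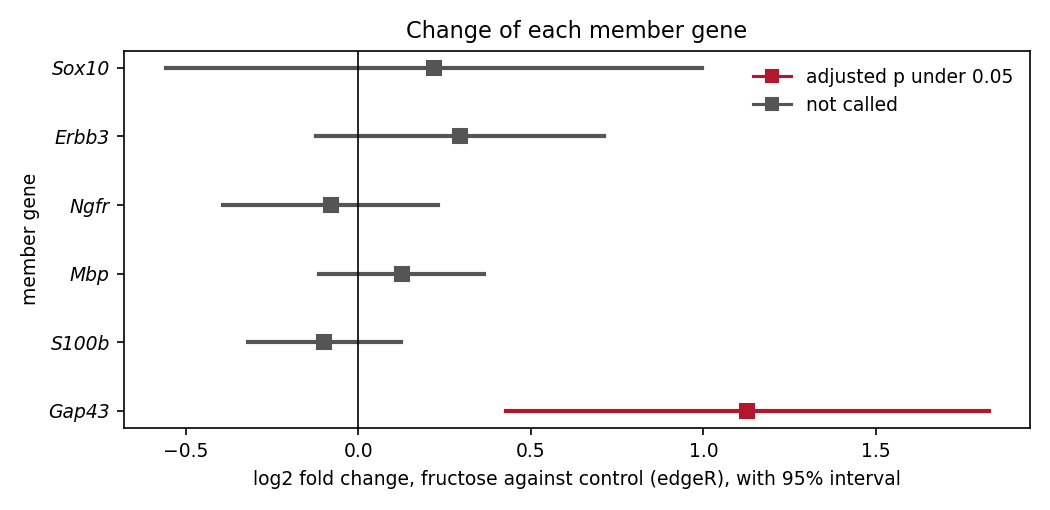
Log2 fold change of each gene between the 2 fructose and the 2 control libraries, as fitted by edgeR, with its 95% interval as a line. The interval of Gap43 runs from 0.43 to 1.83, whereas the intervals of the other 5 genes span 0.

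Sox10 (ENSMUSG00000033006, GRCm38 chromosome 15, 79154908 to 79165240, minus strand) is the transcription factor that neural crest-derived glia need at every stage. Its level was 1.21 and 1.61 CPM in the controls and 1.90 and 1.39 CPM in the fructose libraries. The highest and the lowest value were separated by the 2 values in between, 1 of each group, so that the groups overlapped. The mean was 1.41 ± 0.279 CPM in controls and 1.64 ± 0.363 CPM with fructose (SD, n = 2). The log2 fold change was 0.22 (SE 0.36), with a 95% interval from -0.56 to 0.997 and an adjusted p of 0.685 by the edgeR quasi-likelihood test. As a fold its lower bound is 0.679, so that neither a change nor its absence can be read from these counts.

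Erbb3 (ENSMUSG00000018166, chromosome 10, 128567523 to 128589652, minus strand) is the neuregulin receptor through which axons keep Schwann cell precursors alive. It was measured at 5.75 and 5.60 CPM in the controls and at 6.19 and 7.72 CPM in the fructose libraries. Both fructose values were above both controls, but the lower of them exceeded the higher control by less than the 2 fructose libraries differed from each other. The log2 fold change of 0.29 (SE 0.19) had a 95% interval from -0.12 to 0.71, and the adjusted p was 0.278 by the edgeR quasi-likelihood test.

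Ngfr (ENSMUSG00000000120, chromosome 11, 95568818 to 95587735, minus strand) encodes the neurotrophin receptor p75, which marks precursors and non-myelinating Schwann cells and is also found on some mesenchymal cells. The controls gave 11.4 and 12.5 CPM and the fructose libraries 11.01 and 11.6 CPM. The groups overlapped, and the log2 fold change of -0.08 (SE 0.14) had a 95% interval from -0.39 to 0.23 (edgeR, adjusted p = 0.713). Removal of the GC trend turned its sign, to 0.11, with no call.

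Mbp (ENSMUSG00000041607, chromosome 18, 82475146 to 82585637, plus strand) encodes myelin basic protein. The annotation gives it 16 transcripts, some of which are made outside glia, and the gene-level counts do not separate them. Its level was 26.2 and 23.8 CPM in the controls against 28.7 and 25.9 CPM with fructose. The lower fructose library fell below the higher control, so the groups overlapped, and the log2 fold change was 0.13 (SE 0.11, 95% interval -0.11 to 0.37, edgeR adjusted p = 0.424).

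S100b (ENSMUSG00000033208, chromosome 10, 76253853 to 76261159, plus strand) was measured at 61.9 and 72.8 CPM in the controls and 67.1 and 58.7 CPM in the fructose libraries. Both the highest and the second lowest value were controls, and the groups overlapped. The means of 67.3 ± 7.67 and 62.9 ± 5.92 CPM (SD, n = 2) gave a log2 fold change of -0.10 (SE 0.10). This was the most precisely measured of the 6 genes, and its 95% interval of -0.32 to 0.12 leaves out any change as large as that of Gap43 (edgeR, adjusted p = 0.510). Its sign turned, with no call, when the length trend was removed (0.10) and when control library 2 was left out (0.02).

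Gap43 (ENSMUSG00000047261, chromosome 16, 42248442 to 42340651, minus strand) was counted 21 times in each control library and 61 and 56 times in the fructose libraries. This corresponds to 1.11 and 1.16 CPM in the controls and 2.70 and 2.29 CPM with fructose. The groups did not overlap, and the gap between them was larger than the difference within either group. The log2 fold change was 1.13 (SE 0.32), with a 95% interval from 0.43 to 1.83, that is, a fold of 1.35 to 3.55, and an adjusted p of 0.0231 by the edgeR quasi-likelihood test. The call was lost with DESeq2 (1.12, adjusted p = 0.0962), without fructose library 1 (edgeR, 1.01, adjusted p = 0.140) and without fructose library 2 (edgeR, 1.25, adjusted p = 0.0621). It was kept in 12 of 15 alternatives, including all 4 that removed a length or GC trend, and over the 15 the log2 fold change stayed between 1.01 and 1.36.

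**Figure D3:**
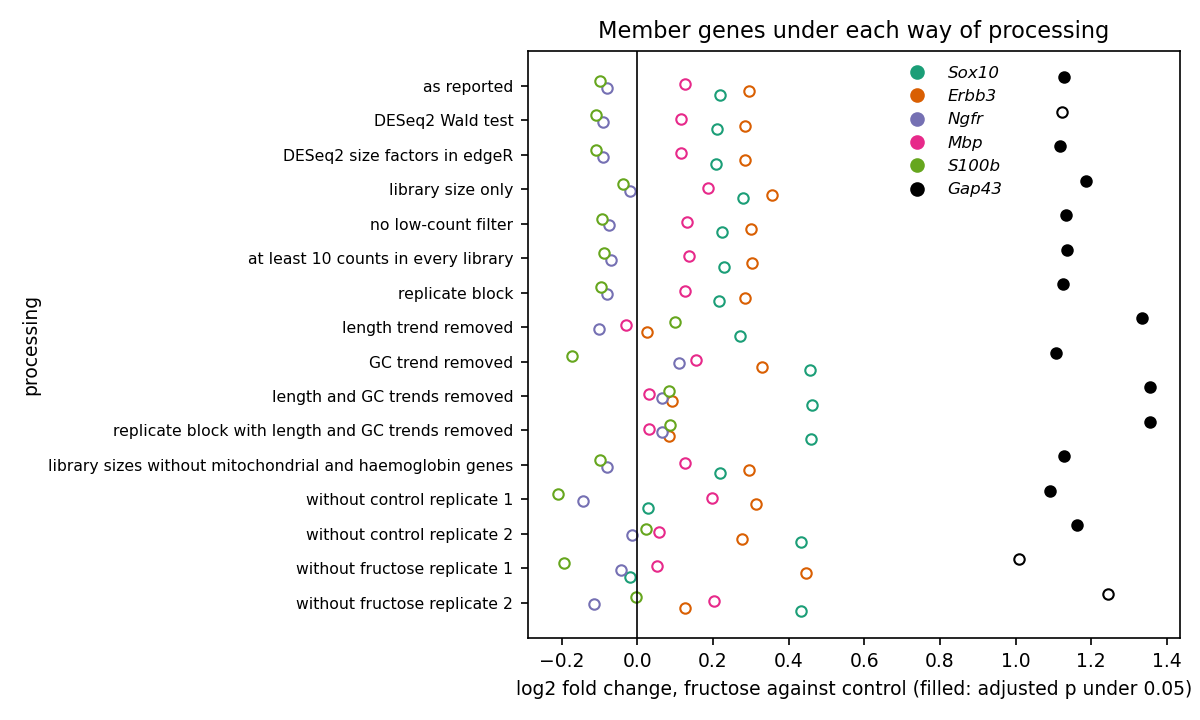
Log2 fold change of the 6 genes as reported and under each of the 15 alternatives, with filled points where the adjusted p was under 0.05. Gap43 stays between 1.01 and 1.36 and is unfilled in 3 alternatives, while Sox10, Ngfr, Mbp and S100b each lie on both sides of 0 and Erbb3 stays between 0.02 and 0.45.

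Because Gap43 changed its place relative to the other markers, their counts were also compared within each library, where depth cancels. There were 0.913 and 0.724 counts of Gap43 per count of Sox10 in the controls and 1.42 and 1.65 in the fructose libraries. Per count of Erbb3, they were 0.193 and 0.208 in the controls and 0.436 and 0.296 with fructose. On the scale per kilobase, Gap43 lay below Erbb3 in both controls (0.780 and 0.820 against 0.956 and 0.931) and above it in both fructose libraries (1.90 and 1.61 against 1.03 and 1.28). S100b per Sox10 was 51.0 and 45.2 in the controls and 35.3 and 42.3 with fructose, so that this ratio did not overlap between the groups either, in the other direction. Erbb3, Mbp and Ngfr per Sox10 overlapped. Erbb3 per Sox10 was 4.74 and 3.48 in the controls and 3.26 and 5.56 with fructose, and Mbp per Sox10 was 21.6 and 14.8 against 15.1 and 18.6. These ratios were not tested, as the few Sox10 counts make them imprecise and 2 libraries against 2 cannot give an exact permutation p below 0.333.

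The other cell types that share these markers were examined next. Skeletal muscle genes moved with Gap43, since 15 of 16 were called higher and all 16 had both fructose libraries above both controls. Their summed levels were 333 and 433 CPM in the controls and 959 and 724 CPM with fructose. Over all tested genes, 15.5% were called higher, 10.7% lower, and 33.4% had both fructose libraries above both controls. The counts of called genes in this and the following lists of other cell types are read against these shares. On the muscle side of the neuromuscular junction, all 9 tested genes had a log2 fold change above 0, with a median of 0.58. Of these, 2 were called higher, and both, named here after their values were seen, are acetylcholine receptor subunits of muscle. Chrnd was counted 3 and 5 times in the controls and 25 and 25 times with fructose (log2 fold change 2.26, SE 0.54, edgeR adjusted p = 0.0109), and Chrng 2 and 3 against 14 and 19 times (2.32, SE 0.65, edgeR adjusted p = 0.0220). DESeq2 called neither of them, and 0 of the 9. The summed level of the 11 junction genes was 4.12 and 6.99 CPM in the controls and 10.3 and 8.16 CPM with fructose. The part of muscle, and of the nerve endings within it, in the Gap43 result was not tested.

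Markers of other glia and of pigment cells, which also come from the neural crest and can use Sox10, were scarce. Of 9 melanocyte genes only Mitf and Pmel were tested and neither was called, while the melanosome genes Tyrp1 and Mlana had no count in any library, and the list summed to 4.12 and 3.33 CPM in the controls and 4.33 and 4.74 CPM with fructose. Of 10 genes of oligodendrocytes and other central glia, 2 were tested and 0 called by edgeR, with Nkx2-2 and Opalin at 0 counts in all libraries. That list summed to 25.9 to 28.9 CPM in the controls and 28.0 to 35.1 CPM with fructose, nearly all of it from the glutamate transporter gene Slc1a3. Among 8 genes of the perineurium, the sheath around nerve bundles, 5 were tested and 0 called, with sums of 28.1 and 23.2 CPM in the controls and 22.9 and 21.4 CPM with fructose. In these 3 lists 0 genes had an unadjusted edgeR p under 0.05, and DESeq2 also called 0. The most abundant of the perineurium genes was the glucose transporter gene Slc2a1, which many cells use. The part of these cells in the 6 genes was not tested.

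For brown adipocytes themselves, which make S100b, 3 of 12 marker genes were called higher and 2 lower, with a median log2 fold change of -0.05 and sums of 24858 and 26983 CPM in the controls and 24797 and 22949 CPM with fructose. Among the 10 endothelial genes 0 were called higher and 3 lower, among the 10 macrophage genes 1 higher and 2 lower, and among the 8 tested erythroid genes 0 higher and 5 lower. The 10 fibroblast and preadipocyte genes had 1 called higher and 0 lower, and the 10 genes of pericytes and smooth muscle 2 higher and 0 lower. The summed level of the fibroblast list was 5097 and 4386 CPM in the controls and 4958 and 5019 CPM with fructose, and the groups overlapped.

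To set the 6 genes among their pathways, 11 lists of genes of glia, axons and their signals were read out in the same fit. The lists hold 167 genes besides the 6, of which 99 were tested, 18 were called higher and 10 lower, and 17 genes of the lists had no count in any library. The lists share genes with each other and with the 6, and each count is read against the 15.5% called higher and 10.7% called lower over all tested genes.

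Of 22 genes of Schwann cell precursors and immature Schwann cells, 14 were tested, 4 were called higher and 0 lower, with a median log2 fold change of 0.26. At an unadjusted edgeR p under 0.05 the counts were also 4 and 0, and DESeq2 called 0 in either direction. Besides Gap43 the 3 called genes were Itga4, an integrin of crest cells and of many blood cells, Cdh2, the N-cadherin that joins precursors to axons, and Ednrb, an endothelin receptor of the crest that endothelial cells also carry. Itga4 was at 1.62 ± 0.249 CPM in controls and 3.15 ± 0.178 CPM with fructose (SD, n = 2), a log2 fold change of 0.95 (SE 0.28, edgeR adjusted p = 0.0287). Cdh2 rose by 0.45 (SE 0.13, edgeR adjusted p = 0.0278) and Ednrb by 0.41 (SE 0.12, edgeR adjusted p = 0.0226) on the log2 scale, and for all 3 both fructose libraries lay above both controls. Of the exon bases of Itga4, 1124 overlap Cerkl on the other strand. These 3 calls were lost when the length and GC trends were removed together. None of the 3 is particular to glia, and the genes that are, picked here after their values were seen, were counted few times. Foxd3, a precursor transcription factor, had 7 and 8 counts in the controls and 7 and 16 with fructose, Cdh19 had 0 and 0 against 1 and 3, and Dhh, the hedgehog ligand of Schwann cells, had 25 and 39 against 37 and 35.

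Of 28 genes of myelin and its regulators, 14 were tested, 1 was called higher and 1 lower, with a median log2 fold change of 0.03. The gene called higher was Nab1, a corepressor of the EGR factors that is active in many cell types, at 8.66 ± 0.686 CPM in controls and 17.9 ± 1.42 CPM with fructose (SD, n = 2). Its log2 fold change was 1.05 (SE 0.14, edgeR adjusted p = 0.000727) and was called in all 15 alternatives. Art3, an ectoenzyme gene also expressed in muscle, fell by 0.41 on the log2 scale (SE 0.09, edgeR adjusted p = 0.00776), and 133 of its exon bases overlap Cxcl10 on the other strand. The call of Art3 was lost without both trends. Pmp22, a myelin protein gene that fibroblasts also express, was the most abundant of the list and was flat, at 72.0 ± 5.05 CPM in controls and 74.2 ± 1.69 CPM with fructose (SD, n = 2; log2 fold change 0.04, SE 0.09).

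Genes more closely tied to peripheral myelin were counted few times, and those named here were picked after their values were seen. Prx, which Schwann cells use to stabilise mature myelin, had 49 and 74 counts in the controls and 65 and 71 with fructose. Egr2, which switches myelination on, had 6 and 4 counts against 3 and 2. Gjb1 and Pmp2 had no count in any library, but 1224 of the 1408 exon bases of Pmp2 overlap the gene Gm37389 on the same strand, so that its 0 is uncertain. Mbp was thus counted far more often, at 497 and 429 in the controls, than any of these 4 genes, and it was not read as a measure of myelin here.

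Of 23 neuron and axon genes 7 were tested, and Gap43 was the 1 gene called, with a median log2 fold change of -0.10. The 5 neurofilament and intermediate filament genes Nefl, Nefm, Nefh, Ina and Prph together had 6 and 3 counts in the controls and 4 and 5 with fructose, and the neuronal tubulin gene Tubb3 had 0 and 2 against 3 and 0 (both sets chosen after their values were seen). The most abundant genes of the list were Syp, a synaptic vesicle gene, at 16.7 ± 2.497 CPM in controls and 13.98 ± 0.308 CPM with fructose, and Uchl1, at 3.43 ± 0.148 and 3.21 ± 0.781 CPM (SD, n = 2). Both overlap an antisense gene, and whether the counting used strand is not given in the sources used here. Of 15 sympathetic neuron genes 4 were tested and 0 called by edgeR, 7 had no count in any library, and Th, Dbh and Slc6a2, which make and take up noradrenaline, together gave 1 read in the 4 libraries. DESeq2 called 0 genes of both lists, and at an unadjusted edgeR p under 0.05 there was 1 further gene in each, Map2 higher and Phox2a lower.

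**Figure D4:**
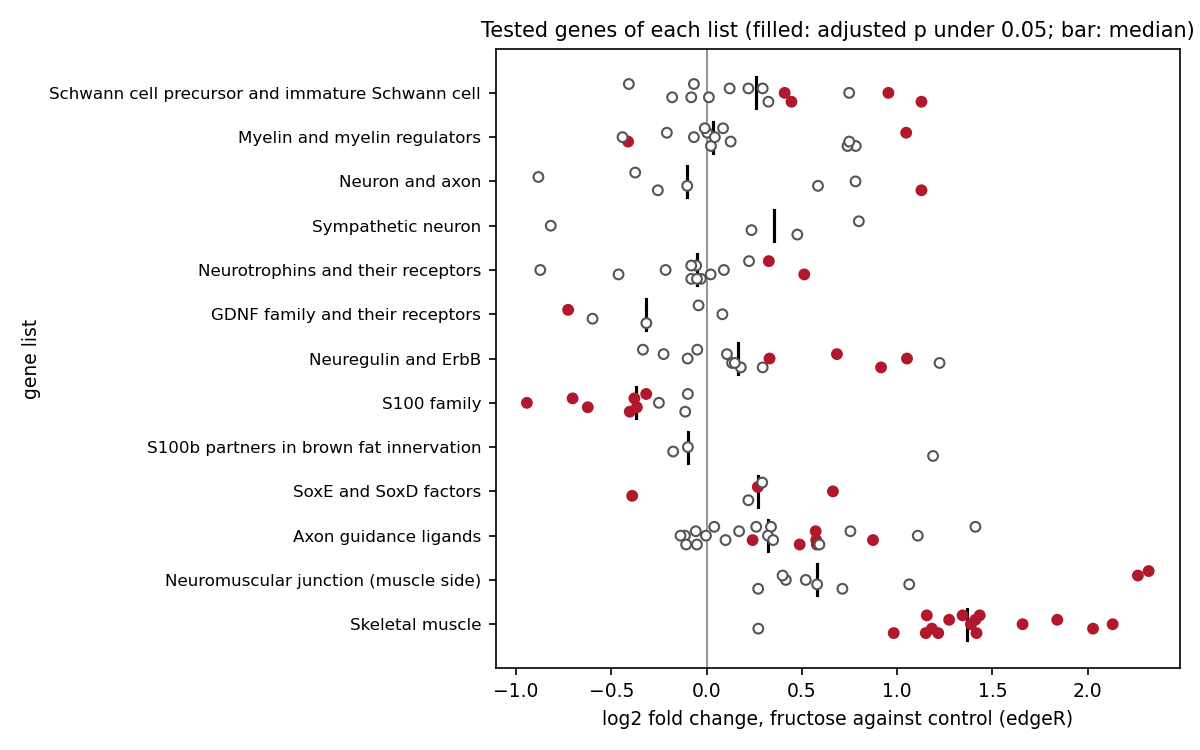
Log2 fold change of every tested gene in each list of glial, axonal and signalling genes and in the lists of the neuromuscular junction and skeletal muscle, filled where the edgeR adjusted p was under 0.05, with a bar at the median. The skeletal muscle list has the highest median, 1.36. All 9 tested junction genes lie above 0, with a median of 0.58. The S100 family lies to the left of 0, and most other lists spread around 0.

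The ligands and receptors that act on these cells were read out next. Of 16 neuregulin and ErbB genes 14 were tested, 4 were called higher and 0 lower, with a median log2 fold change of 0.16. Adam10, a protease that sheds ErbB ligands, rose from 8.57 ± 0.121 to 16.2 ± 0.168 CPM (SD, n = 2; log2 fold change 0.92, SE 0.14, edgeR adjusted p = 0.00120), and was called in all 15 alternatives. Erbin, which binds the ErbB2 receptor, rose by 1.05 (SE 0.25, edgeR adjusted p = 0.00970), Egfr by 0.68 (SE 0.20, edgeR adjusted p = 0.0271) and the neuregulin-cleaving protease gene Bace1 by 0.33 (SE 0.11, edgeR adjusted p = 0.0434). Bace1 shares 975 exon bases with Rnf214 on the other strand. Erbin, Egfr and Bace1 were not called once the length and GC trends were removed together. The partner that Erbb3 needs to signal, Erbb2, was at 12.6 and 10.54 CPM in the controls and 10.48 and 7.92 CPM with fructose, with both fructose libraries below both controls and no call (log2 fold change -0.33, SE 0.18, edgeR adjusted p = 0.179), and the axonal ligand Nrg1 had 0 and 1 counts against 0 and 2 (both picked after their values were seen). Nrg4, the neuregulin that brown adipocytes secrete, was the most abundant ligand at 41.3 ± 0.185 CPM in controls and 38.6 ± 2.27 CPM with fructose (SD, n = 2), with a log2 fold change of -0.10 (SE 0.09, edgeR adjusted p = 0.452).

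Of 18 neurotrophins and receptors, the family to which Ngfr belongs, 13 were tested, 2 were called higher and 0 lower, with a median log2 fold change of -0.05. Kidins220, a scaffold of Trk receptors, rose by 0.51 on the log2 scale (SE 0.09, edgeR adjusted p = 0.00297), a call that was lost when the length trend was removed. Ntrk3, the receptor of neurotrophin 3, was at 79.0 ± 2.63 CPM in controls and 99.0 ± 0.305 CPM with fructose (SD, n = 2), a log2 fold change of 0.33 (SE 0.08, edgeR adjusted p = 0.0118), but it became a call in the other direction, at -0.45 (edgeR adjusted p = 0.00419), when the length trend was removed, so its direction is not fixed by these data. Sort1, the partner of p75 for the precursor forms, was flat at 188 ± 6.97 and 191 ± 4.45 CPM (SD, n = 2; log2 fold change 0.02, SE 0.08).

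Among 9 genes of the GDNF family 5 were tested, 0 were called higher and 1 lower. Nrtn, a ligand for parasympathetic and enteric neurons, fell by 0.73 on the log2 scale, from 5.99 ± 1.01 to 3.61 ± 0.847 CPM (SD, n = 2; SE 0.24, edgeR adjusted p = 0.0415), a call that 7 of 15 alternatives kept and DESeq2 did not. Of 25 axon guidance genes 23 were tested, 6 were called higher and 0 lower, with a median log2 fold change of 0.32. They were Sema3c at 0.87 (SE 0.24), Plxna2 at 0.58 (SE 0.10), Efna5 at 0.58 (SE 0.16), Efnb2 at 0.57 (SE 0.11), Nrp1 at 0.49 (SE 0.09) and Nrp2 at 0.24 (SE 0.08), all as log2 fold changes. Several of these genes, among them Nrp1, Nrp2 and Efnb2, also act in the growth of vessels. Efnb2 was called in all 15 alternatives and was the 1 gene of the 6 still called without both trends, whereas Nrp2 turned to -0.08 without the length trend.

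The S100 family, of which S100b is a member, had 10 of 16 genes tested, 0 called higher and 7 lower, and all 10 had a log2 fold change below 0, with a median of -0.37. S100b was among the 3 that were not called. The largest falls were those of S100a8 and S100a9, the subunits of calprotectin from neutrophils and monocytes, at -0.94 (SE 0.22, edgeR adjusted p = 0.0105) and -0.70 (SE 0.18, edgeR adjusted p = 0.0139). S100a1, the most abundant of the family, was at 586 ± 28.3 CPM in controls and 443 ± 28.3 CPM with fructose (SD, n = 2; log2 fold change -0.40, SE 0.09, edgeR adjusted p = 0.00670). S100a6, S100a13 and S100a10 were at -0.62, -0.38 and -0.37 on the log2 scale. These are short genes, and with the length and GC trends removed S100a8 alone remained called, while S100a1, S100a10 and S100a13 moved to between 0.03 and 0.06. Of the genes that act with S100b in the innervation of brown fat, Clstn3, a product of which aids its secretion, was at 242 ± 11.1 CPM in controls and 214 ± 25.4 CPM with fructose (SD, n = 2; log2 fold change -0.18, SE 0.09, edgeR adjusted p = 0.192). The annotation gives Clstn3 7 transcripts, which the gene-level counts do not separate. The receptor gene Ager, picked after its values were seen, had 8 and 6 counts against 19 and 22. It was not called (log2 fold change 1.19, SE 0.49, edgeR adjusted p = 0.0958). Both edgeR and DESeq2 called 0 of the 3 tested genes of that list.

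The family of SoxE and SoxD factors placed Sox10 beside its relatives. Of 6 genes 5 were tested, 2 were called higher and 1 lower. Sox5 rose by 0.66 (SE 0.21, edgeR adjusted p = 0.0366) and Sox6 by 0.27 (SE 0.09, edgeR adjusted p = 0.0442), while Sox13 fell by 0.39 (SE 0.13, edgeR adjusted p = 0.0463), all on the log2 scale. None of the 3 was called by DESeq2, or with the length and GC trends removed together, where Sox6 turned to -0.25, and Sox5 shares 1330 exon bases with an antisense gene. The other SoxE genes, picked after their values were seen, were as scarce as Sox10 or scarcer, with 16 and 14 counts of Sox9 in the controls and 18 and 29 with fructose, and 8 and 0 against 8 and 4 of Sox8.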

How the data were processed

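RNA of 4 libraries was sequenced by the authors, who trimmed reads with fastp, aligned them to mm10 with TopHat2 2.0.0 and Bowtie2 2.0.0.5 and assembled transcripts with StringTie 2.2.0, per the submitters' processing notes. The authors deposited whole-number counts of reads for each gene, not normalized, and the 4 single-library tables were identical to the table of all libraries. Symbols, coordinates, lengths and GC content came from GENCODE M21, in which 43 identifiers had no match. Counts were filtered with filterByExpr, scaled by TMM, and tested with edgeR 4.0.16 in R 4.3.3 (quasi-likelihood, 2-sided, Benjamini-Hochberg over all 12888 tested genes, adjusted p under 0.05), with the group as the only term. CPM are counts scaled to library size after TMM. DESeq2 1.42.0 was the alternative test. Length and GC trends were removed by lowess (span 0.3). The fits were tested on simulated data. The 6 genes and the lists were chosen with earlier results of these data known.

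Genes were named by a rule: the 6 genes, up to 6 called genes and the 2 most abundant per kilobase in each pathway list, the 2 most abundant in each list of other cell types with any marker at 0 counts, and the 5 genes most like Sox10. Other genes were named outside this rule, among them those said above to be picked, chosen or named after their values were seen. Intervals, and the limit of 3 counts for a count of 0, cover counting error or the spread between libraries only. Same-numbered libraries did not deviate together (r = -0.00538 over 12888 genes). A few listed genes are not reported here by name.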

Additional observations from a re-analysis of the deposited data

How the results depend on the processing

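Gap43 stayed above 0 in all 15 alternatives, and the other 5 genes were not called in any of them. The number of the 6 genes called higher was 0 with DESeq2 and 0 to 1 when 1 library was left out, since Gap43 was lost without either fructose library. With 1 library left out, Sox10 ranged from -0.019 (without fructose library 1) to 0.43 and S100b from -0.21 to 0.022 (without control library 2), on the log2 scale. Ngfr turned to 0.11 without the GC trend, to 0.066 without both trends and to 0.065 with the replicate block as well. Mbp turned to -0.031 without the length trend. S100b turned to 0.099 without the length trend, 0.085 without both and 0.087 with the replicate block as well.

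The labels number the libraries 1 and 2 in each group, but nothing ties same-numbered libraries together. With the replicate block, 2117 genes were called higher and 1441 lower, 1 of the 6 genes was called higher, and 16 and 10 of the other listed genes were called higher and lower. The block kept the calls of 25 of 28 other listed genes.

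Over all genes, 2001 were called higher and 1379 lower. The number higher was 1150 without the length trend, 1092 without the GC trend, 527 without both and 629 with the block as well, and 1266 to 2254 with a library left out. The number lower was 859 with library size as the only scaling, 630 without both trends, 649 with the block as well, and 527 to 1685 with a library left out. Of the other listed genes, 18 were called higher, a number that was 9 with DESeq2, 6 without the length trend, 8 without the GC trend, 3 without both, 3 with the block as well and 8 to 16 with a library left out. Their 10 calls of lower became 5, 4 and 4 without the length trend, without both trends and with the block as well, and 5 to 11 with a library left out.

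In the order length trend, both trends, and both with the block, Nrp2 turned to -0.079, -0.017 and -0.017, Sox6 to -0.17, -0.25 and -0.25, and Ntrk3 to -0.45, -0.65 and -0.65, the last 3 being calls. Without both trends, and then with the block, S100a10 turned to 0.032 and 0.030, S100a13 to 0.058 and 0.065, S100a1 to 0.033 and 0.033, and S100a16 to 0.064 and 0.064. The cause of these turns was not tested. Depth limited Gap43 (21 to 61 counts per library) and Sox10 (23 to 43) most, with standard errors of 0.32 and 0.36 on the log2 scale against 0.10 to 0.19 for the other 4 genes.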

Other observations

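The 5 tested genes whose pattern over the 4 libraries lay nearest to that of Sox10, among 11947 genes with a mean of at least 1 CPM, were Otub2, Fam229b, Gja5, Dimt1 and Dtwd2, at Euclidean distances of 0.0662 to 0.0878 between centred log2 CPM values. Gja5, a connexin gene of arterial endothelium, had 222 and 266 counts in the controls and 390 and 326 with fructose, and Otub2, a deubiquitinase gene, had 56 and 69 against 106 and 86. None of the 5 was called by edgeR, and nothing is read from this likeness over 4 libraries.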
